A study of Mus musculus with 2 samples.

Results

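Single-exon models in which adrenal transcripts were seen only in part or without splicing were described in long-read RNA sequencing of the adrenal gland. The models were chosen by their class, incomplete splice match (ISM, a piece of an annotated transcript) or Genomic (overlapping an annotated gene without matching its splicing), by having 1 exon in an annotated mouse gene, and by at least 5 reads in a library, with the gene Cyp11a1 left out. There were 5272 such models among 225143 models in all: 2911 of 112820 in replicate 2 and 2361 of 112323 in replicate 1. Because read number selected them, their abundance is given as a description: 526 models in replicate 2 and 436 in replicate 1 stood just inside the threshold at 5 reads, and 783 and 650 stood just outside it at 4 reads. The samples were 1 group of 2 libraries, called replicate 2 and replicate 1, from adrenal glands of 14-day-old male mice of the F1 hybrid strain B6CASTF1/J, with no treatment or genetic change named. The labels speak of a set of 3 males and give both libraries the same donor, so they do not show that the libraries came from separate animals, and p-values below cover counting error only. Without a second condition, the libraries were compared with each other.

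Where cDNA is primed on the poly(A) tail of an RNA, a long read runs from the tail toward the 5′ end. A read that stops inside the last exon, because the RNA was broken or the copy ended early, holds no splice junction and cannot show which isoform it came from. A read of unspliced nuclear RNA, or one primed at a run of A inside a transcript, also holds no junction. Single-exon models of annotated multi-exon genes gather reads of all these kinds, and the class alone does not tell them apart.

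The libraries held 984958 reads (replicate 2) and 964679 reads (replicate 1) outside the spike-in RNAs. The chosen models took 68805 of them (6.99%) in replicate 2 and 45415 (4.71%) in replicate 1. They lay in 2799 genes in replicate 2 and 2269 genes in replicate 1. Single-exon ISM and Genomic models of any read number were 13648 in replicate 2 and 12170 in replicate 1, and the chosen ones carried 70.1% and 65.1% of their reads. Markers of the adrenal cortex summed to 21106 CPM in replicate 2 and 23810 in replicate 1 (counts per 1000000 reads outside the spike-ins), and those of the medulla to 7943 and 8171. All 5 hepatocyte markers were detected in both libraries and summed to 13363 CPM in replicate 2, against 664 CPM in replicate 1. The 3 lymph node markers reached 91.4 CPM in replicate 2, against 520 CPM in replicate 1, and the 3 brown fat markers 9373 and 9450 CPM, and 3 of 4 kidney markers were at 0 in both. The part of these tissues in the results below was not tested, and in such bulk samples fewer cells of a type and less RNA per cell cannot be told apart.

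The last 30 bases before the 3′ end of leading models are shown because they carry the poly(A) signal hexamer AATAAA or ATTAAA, in capitals, where it was present. They were read from the GENCODE M21 transcripts (GRCm38, the mm10 build of the files) and run 5′ to 3′ on the gene's strand.
Apoe, chr7:19696267-19696296, minus strand: ttgcttAATAAAgattctccgagcacattc
Hsd3b1, chr3:98852194-98852223, minus strand: aaaaacagcAATAAAtattgtaatgcctta
Kcnk3, chr5:30625242-30625271, plus strand: cctAATAAAtgctgtccatggagaccaggc
Star in replicate 2, chr8:25813383-25813412, plus strand: taatcccatgacAATAAAgaacatacatgc
Rpl39, chrX:37082520-37082549, minus strand: ttctggtttataaagtactgaattgccctt
Ahsg, chr16:22899414-22899443, plus strand: ttctcaaataagaaggctctgagccaaaaa
The models of Apoe, Hsd3b1 and Kcnk3 ended on annotated transcript ends behind a hexamer. The authors' models carry adjusted ends, so a window at an annotated end describes the annotation and not where reads ended. The Star model ended behind a hexamer 2191 bases past the nearest annotated end, which lies before the start of this 794-base model. The model lay inside the gene, and an annotated Star exon continued past its end. Rpl39 and Ahsg ended on annotated ends with neither hexamer in these windows or in the last 50 bases.

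Where an annotated exon ran on past the end of a model, the bases after the end could be read as well. They are shown in capitals after the last 10 bases of 3 models, since a run of A in the RNA can itself capture the primer.
Apoe, chr7:19696247-19696276, minus strand: gagcacattcTGAGTCTCTGTGAGTGATTC
Star in replicate 2, chr8:25813403-25813432, plus strand: acatacatgcACACTTCAGCCTGTACATGT
Cyp11b1 in replicate 2, chr15:74834567-74834596, minus strand: tcacaaacatCTAAATAAATAGCAAAGAAA
The 20 bases after the end held 3 A for Apoe and 5 A for Star. Those after the leading Cyp11b1 model of replicate 2, which ended 462 bases inside the annotated end, held 13 A.

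Most of the chosen models were pieces of last exons. Among ISM models, 881 of 903 in replicate 2 (97.6%) and 649 of 662 in replicate 1 (98.0%) lay wholly within the last exon of an annotated transcript. Among Genomic models, 1569 of 2008 in replicate 2 (78.1%) and 1271 of 1699 in replicate 1 (74.8%) did. The Genomic models that did not were mainly those that spanned exon and intron (240 in replicate 2 and 226 in replicate 1), those wholly inside an intron (100 and 88) and those that reached past the gene (77 and 95). ISM models inside an intron numbered 2 in each library. Of models with 1 to 4 reads, 63.0% in replicate 2 and 62.8% in replicate 1 lay within a last exon and 17.5% and 16.2% inside an intron.

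The deposited intervals of the 2 classes differed in what part of the last exon they covered. ISM models began on an annotated exon edge in 93.0% of cases in replicate 2 and 93.7% in replicate 1, whereas a coding base was lacking in 7.20% and 5.74% of them. Genomic models began on an exon edge in 56.8% of cases in replicate 2 and 56.6% in replicate 1, while 71.1% and 70.3% of them held no coding base, so they lay in untranslated sequence, introns, noncoding genes or beyond the gene. The median last exon of the genes was 1391 bases for ISM models in replicate 2 and 1518 bases in replicate 1, and 2054 and 2078 bases for Genomic models. Median model length was 714 bases for ISM and 782.5 bases for Genomic models in replicate 2, and 846 and 968 bases in replicate 1. These are differences between classes that the annotation itself helps to define, and they were not tested. They also describe intervals of models and not the bases that reads covered. Intervals under 50 bases were found for 212 Genomic models in replicate 2 and 150 in replicate 1, and for 0 ISM models.

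**Figure D1:**
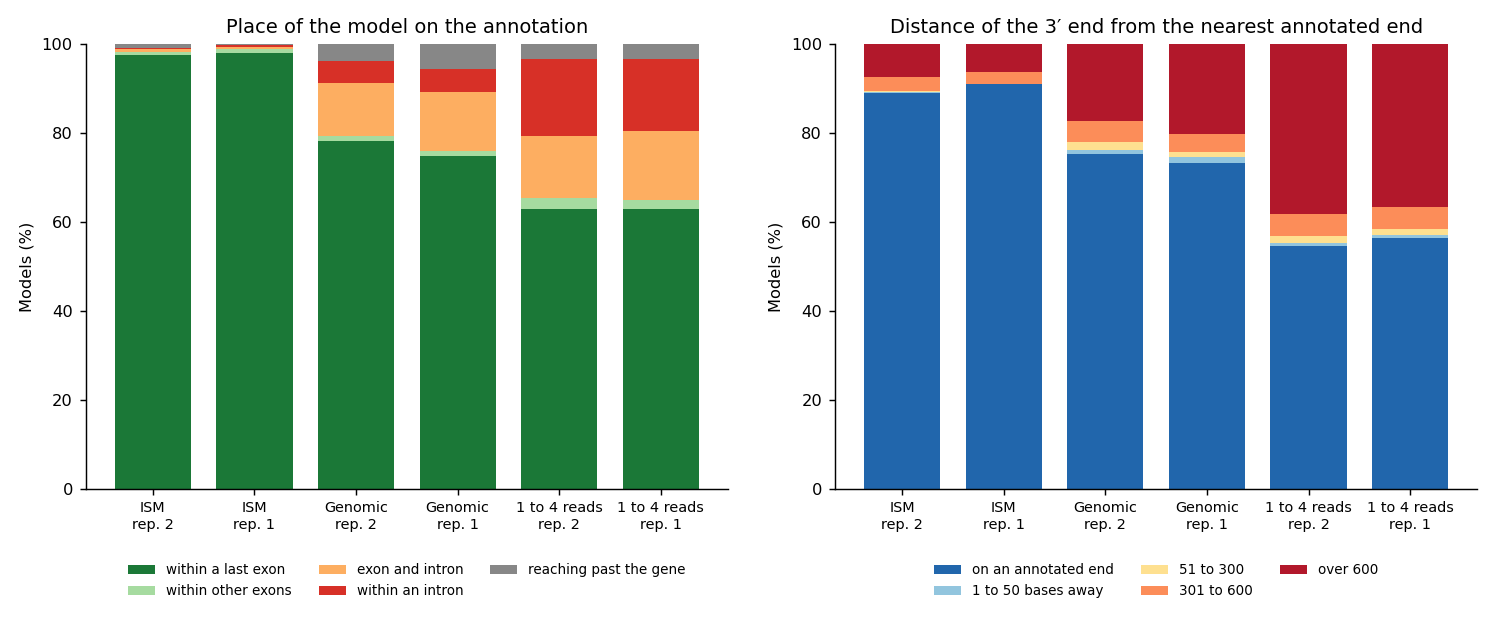
Share of models in percent by place on the annotation (left) and by distance in bases of the 3′ end from the nearest annotated transcript end of the gene (right), for ISM and Genomic models of at least 5 reads and for single-exon models of 1 to 4 reads, replicate 2 beside replicate 1. ISM bars are almost wholly within last exons (97.6% and 98.0%), and few ends of any set lie between 1 and 50 bases from an annotated end.

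The 3′ ends of the models stood mostly on the exact base of an annotated transcript end, and few of the others lay within 300 bases of one. In replicate 2, 2314 models (79.5%) ended on the exact base of an annotated end, 23 ended 1 to 50 bases away, 37 ended 51 to 300 bases away and 415 over 600 bases away. In replicate 1, 1845 models (78.1%) ended on the exact base, 26 within 1 to 50 bases, 17 within 51 to 300 bases and 384 over 600 bases away. The deposited ends are those of the authors' models, which carry adjusted ends, and the ends of single reads were not used here. An exact match therefore does not show where the reads themselves ended. The exact match was found for 89.0% of ISM and 75.2% of Genomic models in replicate 2, and for 90.9% and 73.2% in replicate 1. It was found for 54.6% of models with 1 to 4 reads in replicate 2 and 56.5% in replicate 1.

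A poly(A) hexamer was common before both kinds of end. The 50 bases before the end could be read for 4777 of 5272 models (90.6%), and 3903 of these (81.7%) held AATAAA or ATTAAA. The share was 85.5% for models on an annotated end (3554 of 4156) and 54.8% for those more than 50 bases from one (317 of 578, of 1064 such models). Because model ends were adjusted, the share for models on an annotated end describes the annotation and not where reads ended. Known multi-exon models of at least 5 reads, all on annotated ends, gave 77.65%. Of all 50-base windows of the annotated last exons of these genes, 4.39% held either hexamer. A hexamer is a string of letters and not a measured site of cleavage.

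Bases after the end were known only where an annotated exon continued, for 1338 of 5272 models (25.4%), so a check of A-rich sequence is void for the set as a whole. Within these 1338 models, at least 10 of the next 20 bases were A in 162 (12.1%), with 11.8% in replicate 2 and 12.5% in replicate 1. The share was 16.6% (97 of 586) for models more than 50 bases from an annotated end and 8.53% (63 of 739) for models on one. Multi-exon ISM models of at least 5 reads gave 14.9% and 10.7% for the same kinds of end, and all 20-base windows of the annotated last exons gave 4.48%. For models on an annotated end, the bases read are likewise those after the annotation's own end. The differences between these sets were not tested.

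The interval of a model can be much shorter than the reads behind it. Genomic models under 50 bases numbered 212 in replicate 2, with 6316 reads, and 150 in replicate 1, with 3246 reads. In replicate 2, 196 of them, and 142 in replicate 1, had both ends on annotated exon or transcript edges. Fads2, a fatty acid desaturase, had a model of 1 base with 340 reads in replicate 2 and 278 reads in replicate 1. Sparc, a matrix glycoprotein, had a model of 1 base with 327 and 246 reads, and Rbp4, the plasma retinol carrier, a model of 2 bases with 800 and 35 reads. The length and place of a model therefore do not measure how far its reads reached.

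A smaller group of models began on an annotated start and ended on an annotated end of the gene, without a splice. It comprised 63 models with 2622 reads in replicate 2 and 58 models with 2159 reads in replicate 1. The start and the end could belong to different annotated transcripts, and whether single reads spanned the whole model was not seen. Slc25a5, the mitochondrial ADP/ATP carrier, led it with a Genomic model of 3154 bases, 52.1% of them exonic, holding 1399 reads in replicate 2 and 1258 in replicate 1. Slc25a5 has processed copies elsewhere in the genome, so the division of its reads is uncertain. Ptma, a small acidic nuclear protein, had such a model of 3987 bases with 43 and 35 reads, and the transcription regulator Tsc22d1 one of 3233 bases with 55 and 51 reads. Ptma and Tsc22d1, like Gm7247, Jarid2 and Tbx3os1 below, were named after their values were seen.

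Intronic models were few but some were deep. Abi1, an adaptor of the actin-regulating WAVE complex, had a Genomic model of 1829 bases inside an intron with 58 reads in replicate 2 and one of 1729 bases with 101 reads in replicate 1, both with the same 5′ start. Gm7247 had an intronic model with 315 reads in replicate 2 and 112 reads in replicate 1, and all of its reads in both libraries were single-exon (346 of 346 and 130 of 130). Jarid2, a cofactor of Polycomb repressive complex 2, had an intronic model of 249 bases with 157 reads in replicate 2 and one of 251 bases with 72 reads in replicate 1. Some other deep intronic models overlapped an exon of another gene on the same strand, so they need not be intron RNA of the named gene. Podn models lay on Scp2 (104 reads in replicate 2 and 55 in replicate 1) and AC154200.1 models on Oaz1-ps (113 and 82). These pairs were named after their values were seen. Antisense genes held 42 models in replicate 2 and 41 in replicate 1, and lincRNA genes held 31 and 23. Tbx3os1, an antisense RNA of Tbx3, had 20 reads in replicate 2 and 78 in replicate 1 in the same 133-base model, while 117 reads lay in an antisense-class model that overlapped it by 1 base in replicate 2.

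Cidea, Uqcrq and Ndufb3 had the most reads in ISM models. Cidea, a lipid droplet protein of brown adipocytes, had 1181 ISM reads in replicate 2 and 1090 in replicate 1, or 39.4% and 36.1% of all its reads. Uqcrq, a subunit of respiratory complex III, had 832 and 557 ISM reads, or 33.2% and 30.1% of its reads counting all its single-exon models. Ndufb3, a subunit of complex I, had 754 and 611 ISM reads in a model that filled its last exon of 316 bases, or 73.2% and 72.2% of its reads. None of these shares differed between the libraries by Fisher's exact test with Benjamini-Hochberg adjustment over all genes (adjusted p = 0.330, 0.560 and 1).

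Apoe had the most reads in Genomic models, and 3 genes of steroid synthesis lay among the leading genes of 1 or both classes. Apoe, a lipoprotein component made by liver, macrophages and the adrenal cortex, had 5466 reads in replicate 2 and 1059 in replicate 1 in a model of 354 bases at its 3′ end. Hsd3b1, a 3-beta-hydroxysteroid dehydrogenase, had 924 member reads in replicate 2 and 705 in replicate 1. Its leading model was Genomic with 3 bases in replicate 2 and ISM with the 1170 bases of the last exon in replicate 1. Star, which moves cholesterol into mitochondria, had 598 and 420 member reads, led by a model of 794 bases called ISM in replicate 2 and one of 796 bases called Genomic in replicate 1. Both Star models began at the same base, and 80.6% of the bases of the replicate 2 model were exonic. Cyp11b1, the 11-beta-hydroxylase, had 334 member reads in replicate 2 and 190 in replicate 1.

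Chromaffin and ion channel genes were also among the leading Genomic models. Kcnk3, the potassium channel TASK-1, had 611 member reads in replicate 2 and 494 in replicate 1, or 38.7% and 31.0% of its reads by all single-exon models. Chga, the granule protein chromogranin A, had 339 and 234 reads in models that reached from its last exon into introns, with 30.4% of the bases exonic in replicate 2 and 38.9% in replicate 1. Gabarapl1, an autophagy protein of the ATG8 family, had 786 and 734 reads, and these were 88.1% of all Gabarapl1 reads in replicate 2 and 83.4% in replicate 1. Both the share and the region reads of Kcnk3 were called higher in replicate 2 (adjusted p = 0.00156 by Fisher's exact test and 0.0411 by the exact binomial test), as were those of Chga (adjusted p = 0.00188 and 0.00208 by the same exact tests), while neither passed for Gabarapl1 (0.251 and 0.872).

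Genes with liver expression had large single-exon read numbers in replicate 2 and few in replicate 1. Ahsg, the plasma protein fetuin-A, had 2767 reads in replicate 2 and 100 in replicate 1, Fgg, the fibrinogen gamma chain, had 741 and 26, and Rbp4 had 800 and 35. As shares of each gene's reads the libraries were closer than in read number, least so for Ahsg, whose intervals did not overlap. Single-exon reads were 68.7% of Ahsg reads in replicate 2 (Wilson interval 67.3 to 70.1) and 57.5% in replicate 1 (50.04 to 64.6). For Fgg they were 61.1% (58.4 to 63.8) and 58.7% (44.3 to 71.7), and for Rbp4 36.9% (34.9 to 39.0) and 33.3% (25.05 to 42.8). None of the 3 shares passed the test between libraries (adjusted p = 0.174, 1 and 1 by Fisher's exact test). The hepatocyte marker sums were 13363 CPM for replicate 2 and 664 CPM for replicate 1. Ahsg is itself 1 of those markers, with 4087 and 180 CPM, so the sums are not separate from its reads. A part of liver tissue in these read numbers was not tested.

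**Figure D2:**
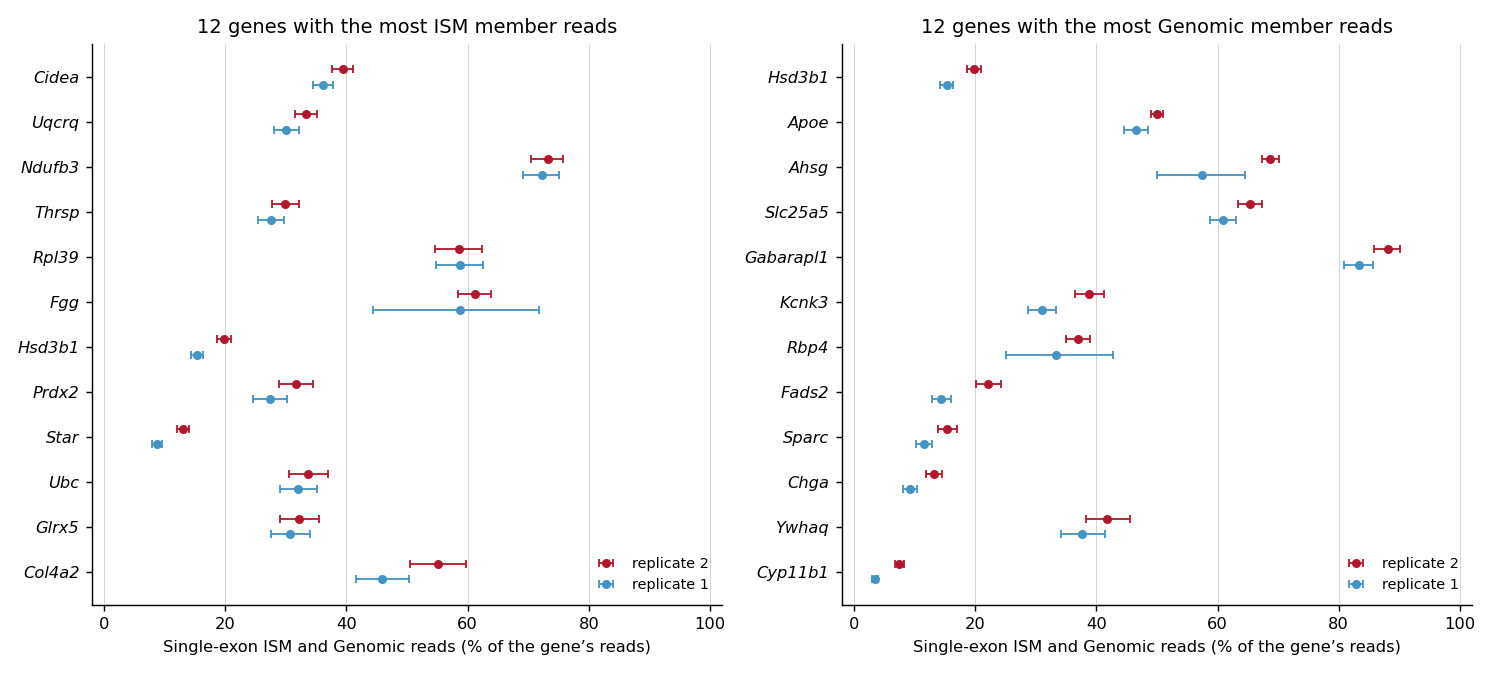
Single-exon ISM and Genomic reads as a percent of all reads of the gene, replicate 2 above replicate 1, for the 12 genes with the most ISM member reads (left) and the 12 with the most Genomic member reads (right); points are shares and bars are 95% Wilson intervals of counting error. Gabarapl1 is highest at 88.1% and 83.4%, and most points of replicate 2 lie to the right of those of replicate 1.

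Across genes, the single-exon share was usually small and in a few genes it was most of the signal. Of 1014 genes with a chosen model and at least 100 reads in each library, 682 had a share under 10% in both, and the median was 6.03% in replicate 2 and 4.15% in replicate 1. In 24 genes more than 50% of the reads were single-exon in both libraries. Besides those above they included Rpl39, a ribosomal protein (58.6% and 58.7%), Mrpl30, a mitochondrial ribosomal protein (70.2% and 70.6%), and Brd2, a bromodomain regulator of transcription (96.5% and 98.3%). Esrra, a nuclear receptor that controls mitochondrial genes, stood at 89.3% and 92.5%, and Snrnp70, a U1 spliceosome protein, at 79.3% and 66.7%. Ribosomal protein genes such as Rpl39 have many processed copies, so the division of their reads is uncertain. Mrpl30, Brd2, Esrra and Snrnp70 were named after their values were seen.

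The share followed the length of the last exon. Among 5753 protein-coding multi-exon genes with at least 20 reads in each library, the median share was 1.91% in replicate 2 and 1.26% in replicate 1 for 699 genes with a longest annotated last exon of up to 500 bases. It was 5.17% and 3.57% for last exons over 1000 and up to 2000 bases, and 8.08% and 5.69% for those over 3000 and up to 5000 bases. Spearman's rho of share against last exon length was 0.28 across these genes, which share libraries and are not independent, and 0.01 against the number of exons. A gene's sequencing depth differed along the same axis, with a median of 173 reads over both libraries in the shortest class and 101 in the class over 3000 and up to 5000 bases.

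**Figure D3:**
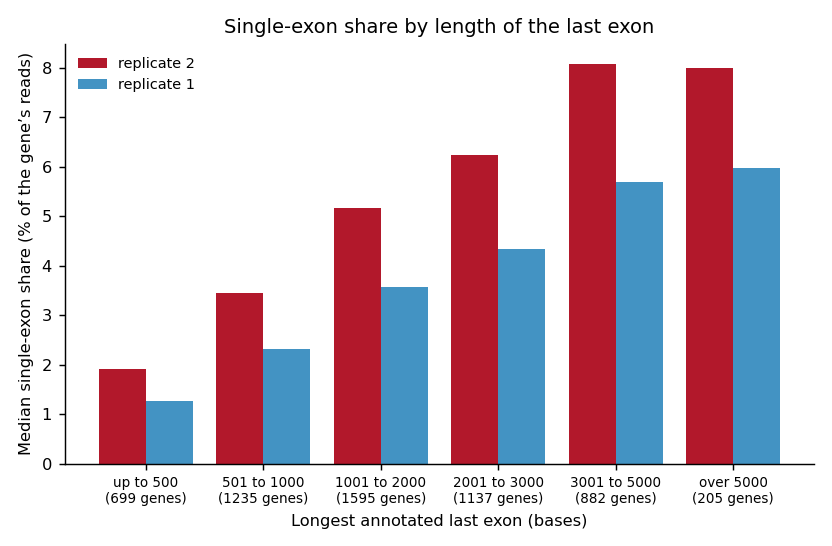
Median single-exon share in percent of a gene's reads, by length in bases of the longest annotated last exon, replicate 2 left of replicate 1 in each class; the number of genes stands under each class. The bars climb to 8.08% and 5.69% in the class over 3000 and up to 5000 bases and stay near that level in the longest class.

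The same places were found in both libraries, but often under another class. Of 2799 genes with a chosen model in replicate 2 and 2269 in replicate 1, 1854 were shared, which is 66.2% of the genes of replicate 2 and 81.7% of those of replicate 1. The leading models overlapped in 1820 of the shared genes (98.2%), ended on the same base in 1385 (74.7%) and had the same interval in 612 (33.0%). Both were Genomic in 1110 genes and both ISM in 348. The class differed in 396 genes (21.4%): 208 were ISM in replicate 2 and Genomic in replicate 1, and 188 the other way round. Among 121 shared genes with at least 50 reads in each leading model, 22 (18.2%) differed in class. Across the 1854 genes, Pearson's r of log2 reads was 0.88 and Spearman's rho was 0.77, a description over genes of the same libraries that were selected to have at least 5 reads in each.

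**Figure D4:**
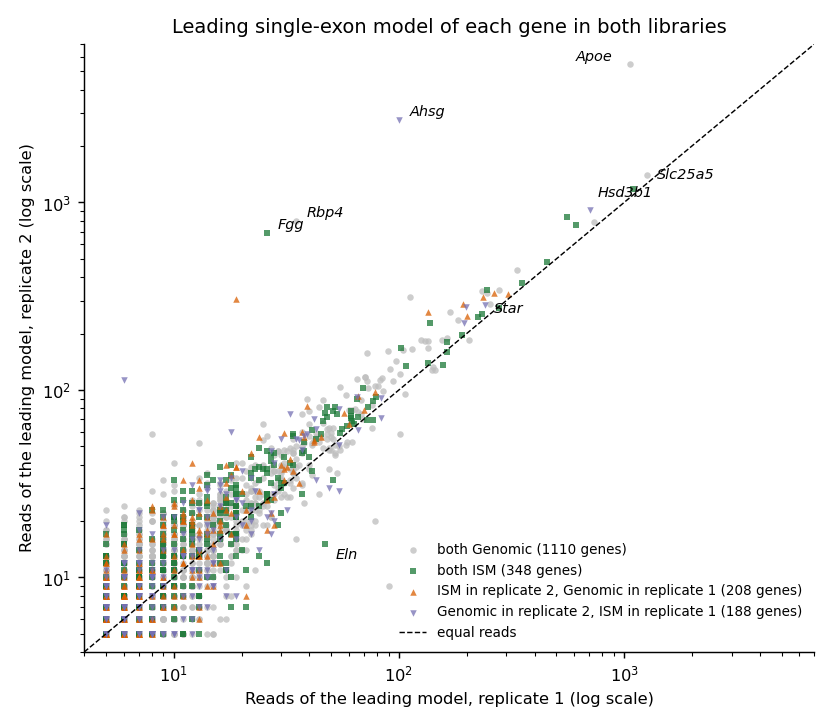
Reads of the leading chosen model of each gene in replicate 2 (vertical, log scale) against replicate 1 (horizontal, log scale) for the 1854 genes with such a model in both libraries, with symbols by class and a dashed line at equal reads. Genes whose class differed (208 and 188) are spread along the whole range, and Ahsg, Fgg, Rbp4 and Apoe stand far above the line.

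Recovery depended on how strictly a match was defined. Of the models chosen in replicate 2, 95.3% overlapped a single-exon ISM or Genomic model of the same gene in replicate 1, and 65.5% overlapped one of at least 5 reads. Of those chosen in replicate 1, 97.5% overlapped such a model in replicate 2 and 80.5% one of at least 5 reads. With at least 50% reciprocal overlap the shares were 66.9% and 69.3%. With 3′ ends within 50 bases they were 84.8% and 87.3%.

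A shift toward single-exon reads in replicate 2 ran through the genes, although few genes passed on their own. Fisher's exact test compared single-exon ISM and Genomic reads with all other reads of a gene in each of 6033 genes with at least 20 reads in each library, whether or not they held a chosen model. The share was numerically higher in replicate 2 in 3687 genes and higher in replicate 1 in 1544 genes, with medians of 4.44% and 3.03%. After Benjamini-Hochberg adjustment, 37 genes (0.613% of those tested) had a higher share in replicate 2 and 3 genes (0.0497%) a higher share in replicate 1, of which 36 and 3 lay among the 2386 tested genes with a chosen model. At an unadjusted p under 0.05 there were 409 genes.

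All 3 genes called higher in replicate 1, and 9 of the 37 called higher in replicate 2, had a pattern in common. At the place of their models, the other library held more single-exon reads under another gene or class than under the gene itself. This was judged by overlap of models. Single reads were not followed, so how many reads changed their gene or class is not known. Pnisr, a gene for a serine-rich splicing-related protein, had 81 single-exon reads of 127 in replicate 2 (63.8%) and 3 of 40 in replicate 1 (7.5%). Coq3, a methyltransferase of coenzyme Q synthesis, had 4 of 30 in replicate 2 (13.3%) and 59 of 94 in replicate 1 (62.8%). The leading Pnisr model of replicate 2 had 0% of its bases in Pnisr exons. It ended 34289 bases past the nearest annotated Pnisr end and overlapped a Coq3 exon on the same strand. The leading Coq3 model of replicate 1 lay wholly within the last exon of an annotated Coq3 transcript. The same place on chromosome 4, starting at 21910419, was named Pnisr in replicate 2, with 80 reads, and Coq3 in replicate 1, with 56 reads, and its single-exon total did not pass the test between libraries (ratio 1.40, 95% interval 0.982 to 2.00, adjusted p = 0.441 by the exact binomial test).

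Further pairs showed the same pattern. Etfb, the beta subunit of the electron transfer flavoprotein, had no single-exon read among 1632 in replicate 2, which allows a share of up to 0.184%, and 61 of 1764 (3.46%) in replicate 1, while Gm45233 held 87 reads at that place in replicate 2. Gm20427 had no single-exon read among 168 in replicate 2, which allows up to 1.79%, and 20 of 167 (11.98%) in replicate 1, with 14 reads under H2-Ke6 in replicate 2. Cox7a1, a muscle and brown fat isoform of a cytochrome c oxidase subunit, had 261 single-exon reads of 1346 in replicate 2 (19.4%) and none of 915 in replicate 1, which allows up to 0.328%, while 190 reads at its place lay under an unannotated gene in replicate 1. At that place the libraries differed by a ratio of 1.34 (1.11 to 1.63, adjusted p = 0.0498). Cox7a1 was named after its values were seen. Over all chosen models, 50 in replicate 2 (1.72%) and 33 in replicate 1 (1.40%) had more reads of the other library under another gene or class than under their own.

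**Figure D5:**
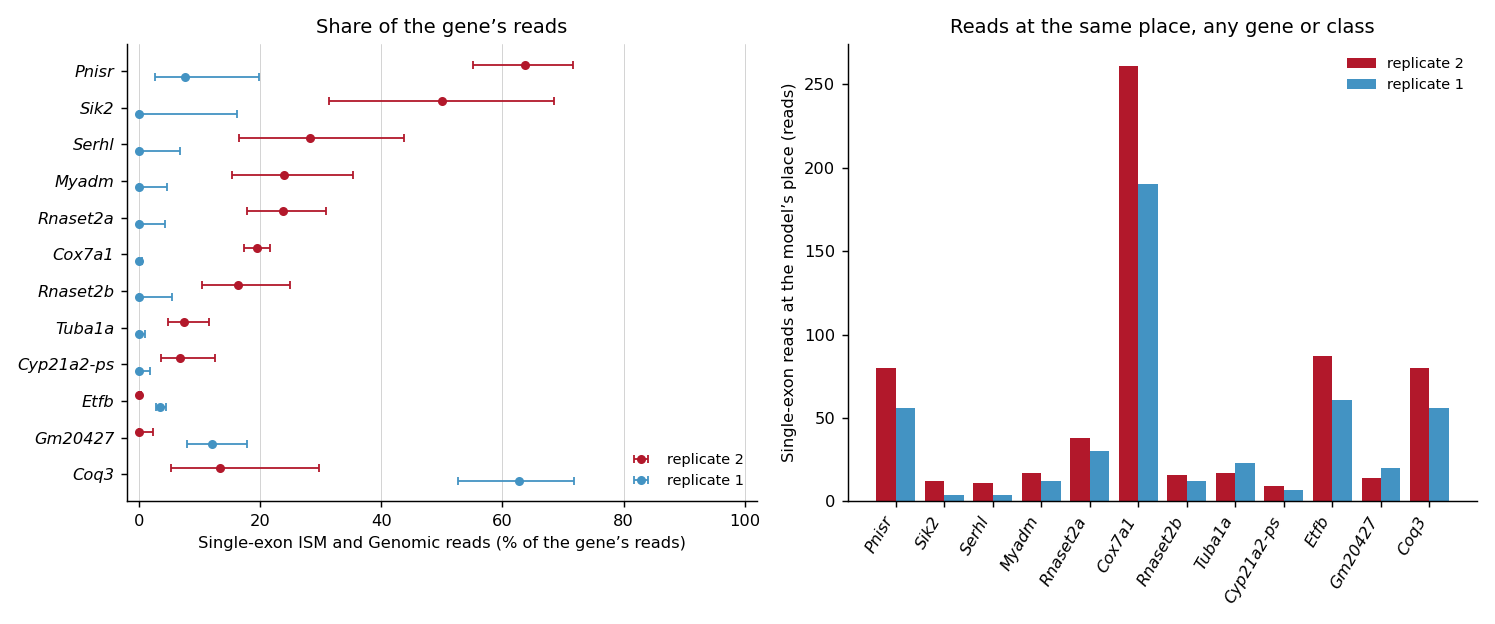
The 12 genes with a called share at whose place the other library held more single-exon reads under another gene or class. Left, single-exon share in percent of the gene's reads with 95% Wilson intervals, replicate 2 above replicate 1. Right, single-exon reads at the place of the model under any gene or class, replicate 2 left of replicate 1. Shares are near 0 in 1 library for most of these genes, while reads at the place are present in both, such as 80 and 56 for Pnisr and Coq3.

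With these genes left out, a choice made after the data were seen, 28 genes were called toward replicate 2 and 0 toward replicate 1. Differences among the 28 ran from 0.509 to 25.7 percentage points with a median of 6.56, and 27 of them held a chosen model. The other was Cyp11a1, which the choice of models left out and which is counted among the genes tested. The largest were Slc25a44, a mitochondrial carrier of branched-chain amino acids (64.0% in replicate 2 and 38.3% in replicate 1, adjusted p = 0.0099), and Cluh, which binds mRNAs of mitochondrial proteins (51.3% and 27.0%, adjusted p = 0.00189), both by Fisher's exact test. Genes past the threshold were deep ones, with a median of 3332.5 reads over both libraries against 122 over all genes tested.

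Reads of single-exon places were also compared directly. Overlapping single-exon models of any class on a strand were joined into regions over both libraries, and each of 4306 regions with at least 10 reads was tested with an exact binomial test against the libraries' shares of all reads. Regions holding a chosen model numbered 3294, of which 2458 passed this read filter. Of these 2458, 90 passed toward replicate 2 and 6 toward replicate 1, beside 3.3% and 0.441% of all regions tested. The shares were 3.66% and 0.244% among regions with a chosen model, and 2.81% and 0.704% among the 1848 other regions, a difference that was not tested. A region could hold a chosen model through either library alone, and more models passed in replicate 2 (2911) than in replicate 1 (2361). The choice thus used the reads that were compared. This difference, and that of the medians below, therefore cannot be read as a trait of the chosen models. The counts of regions with a chosen model depended on the settings: TMM scaling gave 146 and 5, and joining models only at 50% reciprocal overlap gave 479 and 281. With 0.5 reads added to each count, the median log2 ratio (replicate 2 over 1) was 0.31 in regions with a chosen model and 0.21 in all regions.

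Large region ratios toward replicate 2 belonged to genes with liver expression. The Ahsg region held 2767 reads in replicate 2 and 100 in replicate 1, a ratio of 27.1 (22.2 to 33.4), and the Fgg region 691 and 26, a ratio of 26.0 (17.6 to 40.1). Azgp1, a secreted zinc-binding glycoprotein, had 29 reads in replicate 2 and 0 in replicate 1, at least 9.47-fold higher with 3 reads as the limit for replicate 1, and Mat1a, the liver methionine adenosyltransferase, had 24 and 0. Fga, the fibrinogen alpha chain, had 35 reads and 1 read, a ratio of 34.3 (5.76 to 1392). Apoe stood at 5466 and 1059 reads, a ratio of 5.05 (4.73 to 5.40), with shares of its own reads of 49.97% and 46.5% (adjusted p = 0.187 by Fisher's exact test). In the other direction, Eln, the elastic fibre protein elastin, had 15 reads in replicate 2 and 47 in replicate 1 (adjusted p = 0.00203 by the exact binomial test), a ratio of 0.313 with an interval of 0.162 to 0.569. Abi1 had 59 and 101 reads, a ratio of 0.572 (0.408 to 0.796, adjusted p = 0.0235 by the exact binomial test), and this call was lost under both other scalings (adjusted p = 0.089 and 0.0606). As a share of the gene's own reads, Eln stood at 26.3% (15 of 57) in replicate 2 and 18.95% (47 of 248) in replicate 1. Abi1 stood at 83.3% and 81.4%, and neither share was called.

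Gene lists for tissue and function were described by their counts, beside the median share of 4.44% and 3.03% over all genes tested and the 0.613% and 0.0497% of them called toward replicate 2 and replicate 1. Called genes were deep, so the counts of lists that hold deep genes cannot be read against that background alone. The steroidogenesis list does not hold Cyp11a1, which was called as stated above. It does hold the lipoprotein gene Apoe, with 5466 of the list's 7980 member reads in replicate 2 and 1059 of 2786 in replicate 1. In this list, 19 of 21 genes held a chosen model, and 4 of 21 tested genes were called toward replicate 2 and 0 toward replicate 1. The median share was 5.54% in replicate 2 and 3.33% in replicate 1. The 4 called genes were Hsd3b1 (19.8% and 15.3%, adjusted p = 6.57e-06), Star (12.95% and 8.72%, adjusted p = 3.61e-08), Cyp11b1 (7.44% and 3.37%, adjusted p = 9.54e-17) and Cyp21a1, the 21-hydroxylase (3.95% and 1.80%, adjusted p = 1.37e-11), all by Fisher's exact test. At the Cyp11b1 place 334 single-exon reads in replicate 2 stood against 265 in replicate 1, more than its own 190 member reads there, and this region was not called (ratio 1.23, 1.05 to 1.46, adjusted p = 0.184 by the exact binomial test). It was called under both other scalings (TMM ratio 1.38, adjusted p = 0.00349, and DESeq2 size factor ratio 1.34, adjusted p = 0.0127, by the same exact test).

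In the chromaffin list, 10 of 20 genes held a chosen model and 1 of 13 tested genes, Chga (13.2% and 9.17%, adjusted p = 0.00188 by Fisher's exact test), was called higher in replicate 2. Scg2, a secretogranin, stood at 6.32% and 5.14%, and Pnmt, which makes adrenaline, at 8.59% and 6.16%, neither called. In the adipose list, 10 of 12 genes held a chosen model and 2 of 12 were called higher in replicate 2, beside 0.613% of all genes tested. One was Ucp1, the uncoupling protein of brown fat, with 68 of 2034 reads in replicate 2 (3.34%) and 19 of 1880 in replicate 1 (1.01%), adjusted p = 0.000252, and its models ended 402 and 412 bases inside the annotated end. The other was Cfd, the secreted protease adipsin (4.11% and 0.734%, adjusted p = 0.0154 by Fisher's exact test). The brown fat marker sums were 9373 CPM for replicate 2 and 9450 CPM for replicate 1. Cfd, and Cyp21a1 above, were named after their values were seen.

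Globin genes had low shares. In the erythroid list, 5 of 8 genes held a chosen model and 2 of 6 tested genes were called higher in replicate 2, beside 0.613% of all genes tested: Hbb-bs, a beta-globin (3.18% and 1.76%, adjusted p = 0.0145), and Hba-a1, an alpha-globin (0.968% and 0.459%, adjusted p = 0.0458 by Fisher's exact test), whose near-identical copy makes the division of reads uncertain. In the list of nuclear-coded mitochondrial genes, 10 of 13 held a chosen model and 3 of 12 tested genes were called higher in replicate 2, beside the same 0.613%, among them Cs, citrate synthase (14.6% and 6.28%, adjusted p = 0.000565), and Atp5a1, an ATP synthase subunit (2.29% and 0.903%, adjusted p = 0.0437 by Fisher's exact test). Atp5b, another ATP synthase subunit, stood at 1.06% and 0.769% and was not called.

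The lists of splicing regulators, nuclear RNAs and imprinted genes held 2 calls. In the splicing regulator list, 15 of 33 genes held a chosen model and 1 of 28 tested genes was called higher in replicate 2. It was Pnisr, whose leading model lay on a Coq3 exon and outside the exons of Pnisr, as described above. Ddx5, an RNA helicase, stood at 23.2% and 16.6%, and Srsf2, a splicing factor, at 12.2% and 7.67%, neither called. In the list of nuclear long noncoding RNAs, 5 of 14 genes held a chosen model and 0 of 6 tested genes were called by Fisher's exact test. The median share of the tested genes of this list was 0% in both libraries. Over all reads of the list the share was 12.2% in replicate 2 and 12.8% in replicate 1. Meg3, an imprinted noncoding RNA, had the highest share of its tested genes. It had 64.2% single-exon reads in replicate 2 and 56.5% in replicate 1 over all its single-exon models. Its leading model, with 36 and 34 reads, ended 1 base past the annotated end. In the imprinted list, 11 of 16 genes held a chosen model and 1 of 10 tested genes was called higher in replicate 2, which was Gnas, the stimulatory G protein alpha subunit (11.8% and 8.16%, adjusted p = 0.00818 by Fisher's exact test). Peg10, a retrotransposon-derived gene, had the highest share of that list (96.2% and 88.0%). In the hepatocyte list, 8 of 12 genes held a chosen model and 0 of 7 tested genes were called, with a median share of 3.93% in replicate 2 and 3.75% in replicate 1. No list gene was called higher in replicate 1.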

How the data were processed

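Transcript models of 2 adrenal gland libraries were taken from the deposited tables, which hold raw read counts per transcript model as whole numbers, with no normalization, per the file headers. Each table also gives other columns, deposited by the authors: model class, exon number and length. TALON made the models, per the file headers; its version, the aligner and the filters: not given in the sources used here, and the assembly is mm10 per the labels. The authors' models carry adjusted ends, so lengths and 3′ ends are those of models. Spike-in sequences held 18103 reads in replicate 2 and 17018 in replicate 1 and were left out of totals. Positions came from the matching annotation of models; exons, last exons and sequences came from GENCODE M21 (GRCm38). A library with no read of a feature was given a limit of 3 reads (3.05 CPM for replicate 2, 3.11 CPM for replicate 1).

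The members and the gene lists were chosen with earlier results of these data known. With 1 group of 2 libraries no model of replicate spread could be fitted. Single-exon shares were compared per gene by Fisher's exact test, two-sided (at least 20 reads in each library), and regions with a two-sided exact binomial test (at least 10 reads), each adjusted by Benjamini-Hochberg over all features tested at 0.05, in Python 3.11.15 with scipy 1.17.1, pandas 2.3.3 and statsmodels 0.14.6. Intervals are 95% Wilson for shares and exact for ratios; they and the limits cover counting error only. Scaling alternatives used edgeR 4.0.16 (TMM) and DESeq2 1.42.0 (size factors) in R 4.3.3. The tests were tested on simulated data. Named genes were the 12 with the most ISM and the 12 with the most Genomic member reads, the 5 largest called region ratios and share differences in each direction, and the 4 leading genes of each list. Near-identical copies and overlapping genes make single assignments uncertain: 13.5% of members overlapped an exon of another gene on the opposite strand and 2.90% on the same strand.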

Additional observations from a re-analysis of the deposited data

How the results depend on the processing

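No paired analysis was possible because there is 1 group. For gene shares (37 calls toward replicate 2 and 3 toward replicate 1), ISM reads alone gave 199 and 105 and Genomic reads alone 185 and 90; class differed between libraries in 21.4% of shared genes. Leaving out genes with more reads of the other library under another gene or class, chosen after seeing the data, gave 28 and 0. Leaving out the hepatocyte list, also chosen after seeing the data, gave 37 and 3. For regions with a member (90 and 6), TMM scaling gave 146 and 5, DESeq2 size factors 127 and 5, no read minimum 41 and 1, at least 20 reads 77 and 2, and 50% reciprocal overlap 479 and 281. The scalings moved all log2 ratios by 0.16 and 0.11. ISM models numbered 1565, 2510 at a minimum of 3 reads, 759 at 10, and 662 to 903 in 1 library alone. Genomic models numbered 3707, 6506 at 3 reads, 1603 at 10, and 1699 to 2008 in 1 library alone. Genomic models with at least 50% of bases exonic were 85.0%, 78.8% at 90% of bases, and 86.6% weighted by reads; those ending within 50 bases of an annotated end were 75.5%, and 78.9% weighted by reads. A-rich ends were 12.1%, 8.67% at 60% A, 7.03% at 70%, 22.8% in 10 bases and 8.91% in 30 bases. Hexamers were found for 81.7%, 80.0% in 40 bases, 67.5% for AATAAA alone and 82.8% weighted by reads. Recovery of replicate 2 models was 95.3%, 66.9% at 50% reciprocal overlap and 84.8% by 3′ ends; recovery of replicate 1 models was 97.5%, 69.3% and 87.3%. Where no value is given for it, the cause was not tested. Counting error limits genes with few reads.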
